A study of Homo sapiens with 12 samples.

Results

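HHLA1, ESRG, ABHD12B, SCGB3A2 and LINC01108 are transcripts of human embryonic stem cells (hESCs) that have been linked to endogenous retroviruses of the HERVH family. They were taken by name from a table of 28278 genes, all 5 were found in it, and all 5 were among the 15916 genes that passed a filter on low counts. HHLA1 was chosen by its measured fall with N-acetyl-L-cysteine (NAC) in these libraries, so its values in the comparisons that involve NAC are given as a description with no test. The other genes were listed with earlier results of these data known.

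RNA was sequenced from WA26, an established hESC line, in 4 groups of 2 libraries. WT cells and UBQLN1 KO cells were kept in normal O2, which the text of the study gives as 20% O2. The remaining groups were KO cells in 5% O2 and KO cells that received NAC, a thiol antioxidant. UBQLN1 encodes a shuttle protein that carries ubiquitinated proteins to the proteasome, and it was deleted with CRISPR/Cas9. The comparisons ask what loss of UBQLN1 does to the cells and what low oxygen or an antioxidant does once UBQLN1 is gone. The 3 KO groups share the deletion. The duration of culture at 5% O2 is given both as 24 h and as 10 passages, NAC was given for 10 passages, and DMSO was the vehicle control in the scheme of that experiment. The titles of the untreated KO libraries name neither DMSO nor a passage number. Effects of NAC can therefore not be told apart from those of its vehicle, nor effects of either treatment from those of passage. The labels also describe 4 treated WT libraries, which were not analysed here, so all effects of NAC and oxygen are effects in KO cells. The work describes 2 clones per genotype without naming the clone behind each library, so the p-values measure the spread between these libraries, which may be technical.

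HERVH is a primate retrovirus family with many integrated copies. Each complete copy, or provirus, is flanked by long terminal repeats (LTRs) of the LTR7 group, which act as promoters in pluripotent cells. Factors such as POU5F1, NANOG and KLF4 bind LTR7, HERVH transcripts mark primed human pluripotent cells and fade on differentiation, and silencing machinery with TRIM28, SETDB1 and KRAB zinc finger proteins restrains retroviral copies. Some genes use an LTR7 as an extra start, so that a gene with another normal site of expression yields a chimeric transcript in stem cells.

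The provirus at ESRG was used to see how far each gene carries such sequence. On hg38 it lies at chr3:54634482-54640208 on the minus strand, spans 5727 bases and has 2 LTRs that are 97.4% identical. ESRG itself is a long noncoding RNA (chr3:54632122-54639857, minus strand) inside an intron of CACNA2D3, which is read from the opposite strand. Its only annotated transcript starts in the 5′ LTR. At HHLA1, on the minus strand of chromosome 8, a copy of 5773 bases lies inside the gene in the same orientation. It is 91.8% identical to the ESRG provirus, and the short transcript HHLA1-202 starts within it, outside the LTRs, while the other 2 annotated transcripts start upstream of it. At ABHD12B (chr14:50872053-50904970, plus strand), a shorter copy at chr14:50893162-50896276 keeps 1 LTR. ABHD12B-206 starts in that LTR and ABHD12B-204 starts behind it, and the other annotated transcripts start upstream.

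SCGB3A2 (chr5:147870682-147882191, plus strand) has 2 copies. The one in the same orientation, at chr5:147864663-147869040, lies upstream of every annotated start. The other, at chr5:147869834-147874526, runs in the opposite direction and holds the starts of SCGB3A2-202, SCGB3A2-203 and SCGB3A2-204. LINC01108 (chr6:14280127-14285454, minus strand) had no match of at least 300 bases and 85% identity within 10000 bases, so no HERVH sequence was found at this gene, and it is described below as a stem-cell transcript only. The map of transcripts and matches shows these arrangements.

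**Figure D1:**
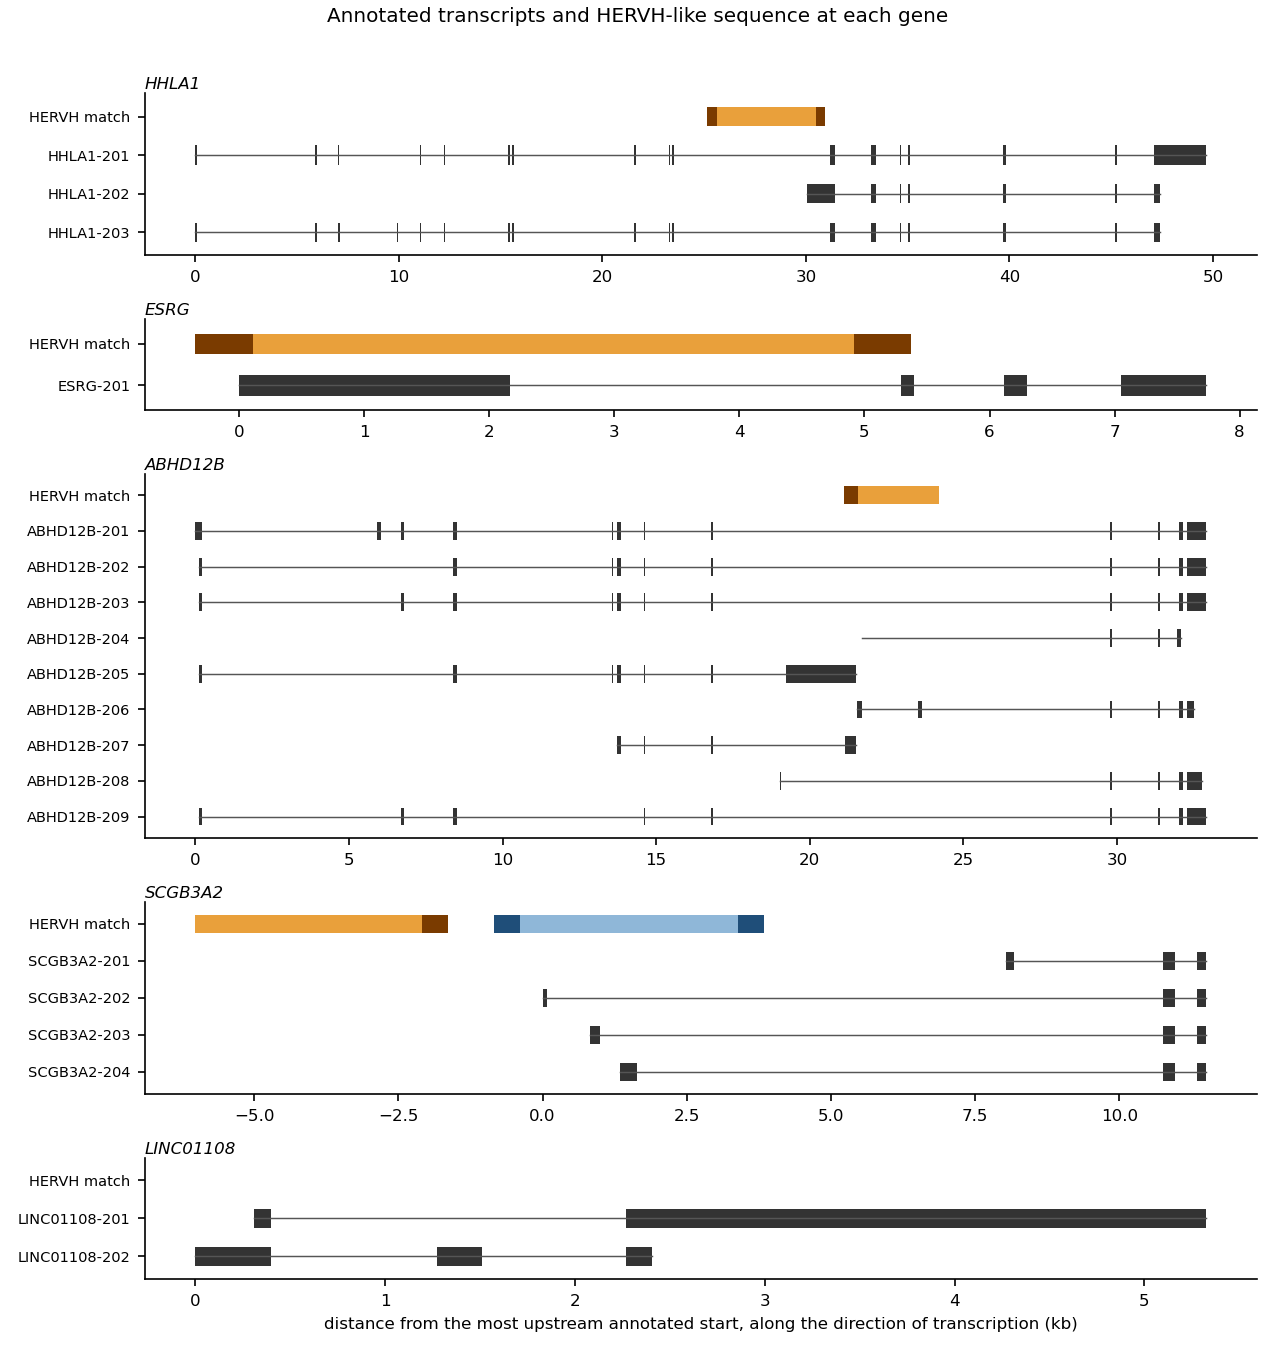
Annotated transcripts of the 5 genes (dark boxes are exons, lines are introns) and stretches that match the ESRG provirus, drawn by distance in kb from the most upstream annotated start along the direction of transcription. Orange marks matches in the orientation of the gene with their LTRs in brown, and light blue marks the match in the opposite orientation at SCGB3A2 with its LTRs in dark blue; ESRG starts in an LTR, HHLA1 and ABHD12B hold a copy in the middle of the gene, and LINC01108 has none.

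The LTRs of these genes were close in sequence to the 5′ LTR at ESRG, compared over 454 to 458 aligned bases. The pair of LTRs at HHLA1 were 96% and 96.5% identical to it, and the LTR at ABHD12B in which ABHD12B-206 starts was 93.6% identical. At SCGB3A2 the LTR in the orientation of the gene was 95.4% identical, and both LTRs of the copy in the opposite orientation were at 95.2% and 95.6%.

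The level of a transcript is given as CPM, its count scaled to the size of the library, after TMM normalization. Compared per kb of the longest annotated transcript, ESRG was by far the most abundant of the 5, at 177 ± 11.3 CPM per kb (SD, n = 2) in WT. SCGB3A2 followed at 52.1 ± 4.50 CPM per kb, HHLA1 at 7.64 ± 0.36, ABHD12B at 1.94 ± 0.15 and LINC01108 at 0.58 ± 0.25 (SD, n = 2 each). In CPM, 207 tested genes had a higher mean over all libraries than ESRG, against 13575 for LINC01108. The order per kb was the same in every group. The counts cover whole genes and do not tell apart transcripts that start in the LTR from others. Reads from proviral sequence are also the ones that match several places: 60.2% of the 31-base words of the ESRG exons occur more than once in the genome, against 37.5% for SCGB3A2, 20.7% for ABHD12B, 16.5% for HHLA1 and 0.6% for LINC01108.

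Library totals ran from 31236968 to 41639350 counts. UBQLN1 had 7382 and 7591 counts in the WT libraries and from 1476 to 2392 in the 6 KO libraries, and its level in KO was lower by a log2 fold change of -2.29 (SE 0.12, adjusted p = 2.52e-06, edgeR quasi-likelihood test with Benjamini-Hochberg adjustment, as for every adjusted p below). All 8 markers of pluripotent stem cells were detected in every group, with summed levels from 4374 to 5684 CPM. The first NAC library stood apart. It held 1809 counts of DCN, 1114 of COL3A1 and 148 of LUM, genes of fibroblasts, which were at 0 in all other libraries except for 8 counts of COL3A1 in the second WT library. The cells were grown on Matrigel. The summed level of the 10 fibroblast markers was 615 CPM in that library and from 190 to 254 in the others, and the members' values with NAC are therefore also given without it, as are those of other genes whose call changes without it.

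HHLA1, a gene of unknown function named for its HERV-H LTR, was at 30.9 and 33.1 CPM in the WT libraries and at 52.7 and 52.5 in untreated KO. It was at 33.2 and 36.7 CPM in KO at 5% O2 and at 9.94 and 9.22 with NAC. The KO libraries were thus the highest and the NAC libraries the lowest, with no overlap between any groups. The share of all genes whose groups separate in this way was not computed. Absence of overlap is therefore a description only, here and for the genes below. Its counts ran from 276 in the second NAC library to 2162 in the second KO library. The plot of levels by library shows the same order.

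**Figure D2:**
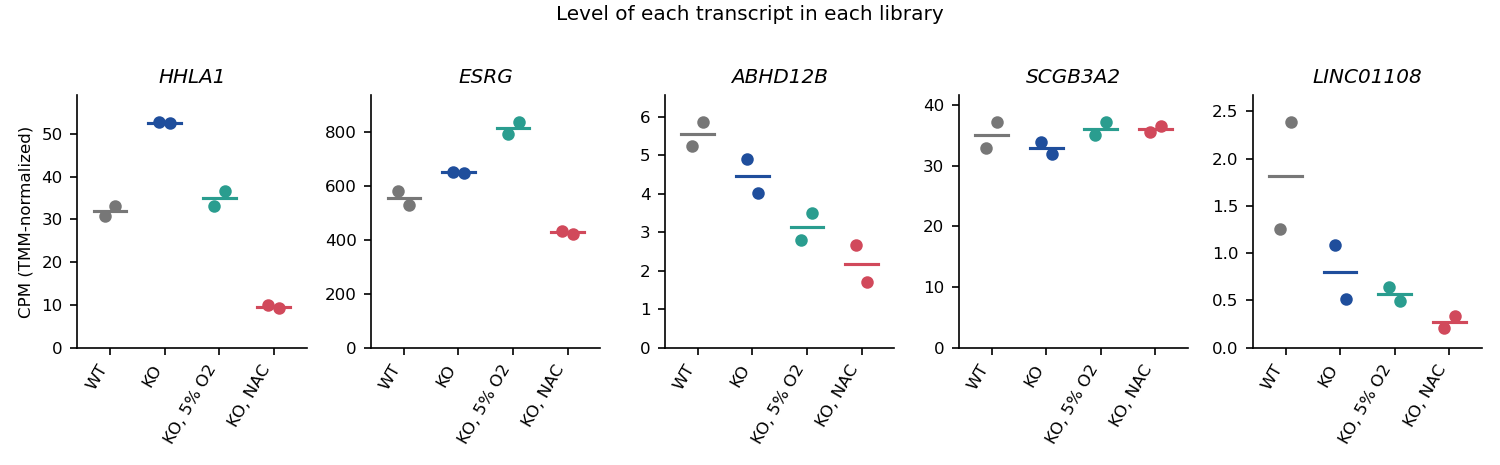
Level of each transcript in TMM-normalized CPM (vertical axes, linear and starting at 0, 1 scale per gene) in the 2 libraries of each of 4 groups; dots are libraries and bars are group means. HHLA1 is highest in untreated KO (52.7 and 52.5 CPM) and lowest with NAC (9.94 and 9.22), ESRG is highest in KO at 5% O2 (791 and 836) and lowest with NAC (434 and 421), and SCGB3A2 stays between 31.9 and 37.2 CPM in all 8 libraries.

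In KO against WT, HHLA1 was 1.64-fold higher, with a log2 fold change of 0.72 (SE 0.11, adjusted p = 0.005). No other member was called in this comparison, where 1.96% of all tested genes were called and 1.34% were called higher. The untreated KO libraries of this comparison are also those against which the fall with NAC was seen when the gene was chosen. HHLA1 is therefore left out of the count of members here, and its p-value is not independent of its choice. Leaving out any 1 of the 4 libraries compared ended the call: the fold change stayed between 0.67 and 0.77 on the log2 scale, and the adjusted p rose to 0.0801 without the first WT library, 0.0521 without the second, 0.0801 without the first KO library and 0.078 without the second. In those fits 1 group has a single library, which is assumed to vary like the others.

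At 5% O2, HHLA1 in KO cells was lower than in untreated KO, with a log2 fold change of -0.59 (SE 0.10, adjusted p = 0.0115), a 1.51-fold difference that rests on the same untreated KO libraries. The call was lost without the first KO library (adjusted p = 0.135), without the second (0.109) and without the first library at 5% O2 (0.2). KO at 5% O2 against WT uses none of the libraries behind the choice of HHLA1. There the difference was 0.13 on the log2 scale (SE 0.11, adjusted p = 0.556, 95% confidence interval -0.10 to 0.36), although the libraries did not overlap by a narrow margin, 33.1 CPM in the higher WT library and 33.2 in the lower one at 5% O2. WT and KO at 5% O2 are therefore neighbours in the order of levels that did not differ past the threshold.

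With NAC, HHLA1 was 5.48-fold lower than in untreated KO, a fitted log2 fold change of -2.46 (SE 0.11). The value is a description, since HHLA1 was chosen for it. Of the 15916 tested genes, 82 had a lower fitted log2 fold change. NAC against 5% O2 gave -1.87 (SE 0.11), also without a test, because the NAC libraries are those of the choice. Without the first NAC library the fitted values were -2.52 against untreated KO and -1.93 against 5% O2, and after a smooth dependence of log2 counts on length and GC content of the transcripts was taken out of every library (GC-corrected below) the first was -2.45. The level with NAC was also below that of WT cells, by the library values given above.

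Among markers of other cell types, the summed level of those of neural ectoderm was highest in untreated KO and lowest with NAC, as HHLA1 was. The summed level of the 6 markers was from 387 to 418 CPM in WT, 615 to 628 in KO, 362 to 445 in KO at 5% O2 and 228 to 240 with NAC. NES and ZIC1, at means of 436 and 174 CPM in KO, made up most of this sum. The mean of SOX1 was 10.1 CPM in KO, 5.27 at 5% O2 and 5.36 with NAC. LHX2 was highest at 5% O2 (0.52 CPM) and OTX1 in WT (0.32 CPM). Of the 6 markers, 4 were tested. NES rose in KO against WT, and NES and ZIC1 fell with NAC. PAX6, which defines this lineage, was near 0 in KO without and with NAC (0.05 and 0.03 CPM). The 7 markers of naive pluripotent cells summed to 19.8 and 22.7 CPM in WT and 21.5 and 21.8 in KO, so that WT and KO overlapped. The sums were 16.8 and 18.3 at 5% O2 and 12.2 and 13.1 with NAC. TFCP2L1 made up most of the sum in KO, with a mean of 14.1 CPM there and 6.05 with NAC. The mean of SUSD2 went the other way, from 3.75 CPM in KO to 4.93 with NAC. DPPA5 was lowest at 5% O2 (0.44 CPM, against 0.61 with NAC). KLF17 and KHDC1L were at 0 in KO with and without NAC. The 8 markers of mesendoderm and endoderm summed to 4.36 and 5.45 CPM in WT, 6.61 and 7.43 in KO and 4.05 and 5.04 with NAC, and were highest at 5% O2, at 8.59 and 10.9, where HHLA1 was lower than in untreated KO. The part of these cells in the result was not tested.

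OC90, which encodes a protein of the inner-ear otoconia, lies 2098 bases from HHLA1 on the same strand, and transcripts that splice from HERVH through HHLA1 into OC90 are known. OC90 had 63 and 67 counts in WT, 86 and 82 in KO, 66 and 93 in KO at 5% O2, and 26 and 16 with NAC. Its NAC libraries were the lowest, and in CPM its libraries at 5% O2 lay on both sides of those of WT and KO. OC90 fell with NAC by 1.82 on the log2 scale (SE 0.39, adjusted p = 0.00241), and without the first NAC library the value was -2.01 (adjusted p = 0.00416). It was at 0.25 in KO against WT (adjusted p = 0.757) and at 0.06 at 5% O2 against KO (adjusted p = 0.945). HHLA1 was called in both of these comparisons, but they share the untreated KO libraries of its choice. Both calls of HHLA1 were lost without single libraries. KCNQ3, a potassium channel gene on the other side of HHLA1 at 9702 bases, had a log2 fold change of -0.85 with NAC (SE 0.43, adjusted p = 0.129), which was -0.24 without the first NAC library (adjusted p = 0.605).

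ESRG, a noncoding RNA used as a marker of primed pluripotent cells, was at 581 and 530 CPM in WT and at 652 and 648 in untreated KO. In KO at 5% O2 it was at 791 and 836 CPM, and with NAC at 434 and 421. No groups overlapped. KO differed from WT by 0.23 on the log2 scale, which did not pass the test over all genes (SE 0.08, adjusted p = 0.165, 95% confidence interval 0.05 to 0.40). ESRG fell with NAC by 0.60 (SE 0.08, adjusted p = 9.77e-05), and without the first NAC library the value was -0.63 (adjusted p = 0.00015).

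At 5% O2 the level of ESRG differed in the other direction. In KO cells at 5% O2 its log2 fold change was 0.32 against untreated KO (SE 0.08, adjusted p = 0.0325) and 0.55 against WT (SE 0.08, adjusted p = 0.00281). The call against untreated KO was the weaker one: it ended without any 1 of the 4 libraries compared (adjusted p = 0.226 without the first KO library, 0.209 without the second, 0.217 and 0.145 without the first and the second at 5% O2) and in the GC-corrected fit (adjusted p = 0.0685). The call against WT ended without the second WT library (adjusted p = 0.0537) and without the second library at 5% O2 (0.0522). The direct comparison of both treatments, which leaves out the untreated KO libraries that both were set against, gave -0.93 for NAC against 5% O2 (SE 0.08, adjusted p = 8.5e-05). The value was -0.95 without the first NAC library, and both NAC libraries were below both libraries at 5% O2. In the opposite direction to ESRG, HHLA1 was lower at 5% O2 than in untreated KO.

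ABHD12B belongs to a family of hydrolases with an alpha/beta fold. It was at 5.24 and 5.86 CPM in WT, 4.91 and 4.03 in KO, 2.80 and 3.49 in KO at 5% O2, and 2.66 and 1.70 with NAC. The groups followed in that order without overlap, again as a description only. PYGL, which overlaps the gene on the opposite strand, was at 88.4 to 120 CPM in the 8 libraries. Counting by default disregards strand, and whether reads of PYGL affect the ABHD12B counts was not tested. ABHD12B fell with NAC by 1.02 on the log2 scale (SE 0.27, adjusted p = 0.00882), and the value was -1.39 without the first NAC library (adjusted p = 0.0018). Without the first KO library the call ended, at -0.88 (adjusted p = 0.0734). Its other comparisons did not pass in the fit of all libraries: -0.31 in KO against WT (adjusted p = 0.571), -0.51 at 5% O2 against KO (adjusted p = 0.26), -0.82 at 5% O2 against WT (SE 0.26, adjusted p = 0.114) and -0.51 for NAC against 5% O2 (adjusted p = 0.181). The value at 5% O2 against WT passed in a fit of only the 4 libraries compared (adjusted p = 0.0389) and without the first (0.0298) or second (0.0295) NAC library. NAC against 5% O2 passed without the first NAC library, at -0.88 (adjusted p = 0.042), and was at -0.24 without the second.

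SCGB3A2, a small secreted protein of the secretoglobin family known from airway epithelium, was at 32.9 and 37.2 CPM in WT and at 33.9 and 31.9 in KO. It was at 35.1 and 37.1 CPM at 5% O2 and at 35.5 and 36.5 with NAC. These libraries lay within a narrow band in every condition. NAC against untreated KO gave 0.13 on the log2 scale (SE 0.11, adjusted p = 0.344), with a 95% confidence interval from -0.10 to 0.36, and 0.15 without the first NAC library (adjusted p = 0.373). The interval was -0.32 to 0.14 for KO against WT, -0.09 to 0.36 for 5% O2 against KO, and -0.23 to 0.23 for NAC against 5% O2. With more than 1000 counts per library, changes of the size seen for HHLA1 with NAC are outside these intervals, and so is the fall of ESRG.

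LINC01108, an intergenic noncoding RNA, was rare. It had 42 and 92 counts in WT, 40 and 21 in KO, 26 and 16 in KO at 5% O2, and 8 and 10 with NAC. WT was highest and NAC lowest, and the KO groups with and without low oxygen overlapped. The log2 fold change with NAC was -1.56 (SE 0.59), at the edge of the threshold (adjusted p = 0.0498), and the call was lost in 11 of 17 alternatives, among them the fit without the first NAC library (-1.24, adjusted p = 0.184) and without the first KO library (-0.92, adjusted p = 0.359). In KO against WT it was -1.20 (SE 0.52, adjusted p = 0.257) and at 5% O2 against WT -1.67 (SE 0.53, adjusted p = 0.112). The latter passed when the filter on low counts was dropped (adjusted p = 0.0235), when only the 4 libraries were fitted (0.0334) and without the first (0.0486) or second (0.0492) NAC library.

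Counted together, 3 of the 4 members other than HHLA1 were called lower with NAC against untreated KO, namely ESRG, ABHD12B and LINC01108. This was a comparison in which 44.6% of all tested genes were called and 20.8% were called lower, so single calls are common in it, and the 4 genes were picked with results in view. At 5% O2 against KO, 1 of these 4, ESRG, was called higher, where 7.81% of tested genes were called, 3.68% higher and 4.13% lower. HHLA1, called lower there, is left out of this count because the same untreated KO libraries were part of its choice. At 5% O2 against WT, 1 was called higher, against 1.78% of tested genes called higher and 3.27% called in either direction. For NAC against 5% O2, 1 of the 4 other members was called lower, against 13.6% called lower and 29.1% called in either direction. The plot of fold changes sets the members side by side.

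**Figure D3:**
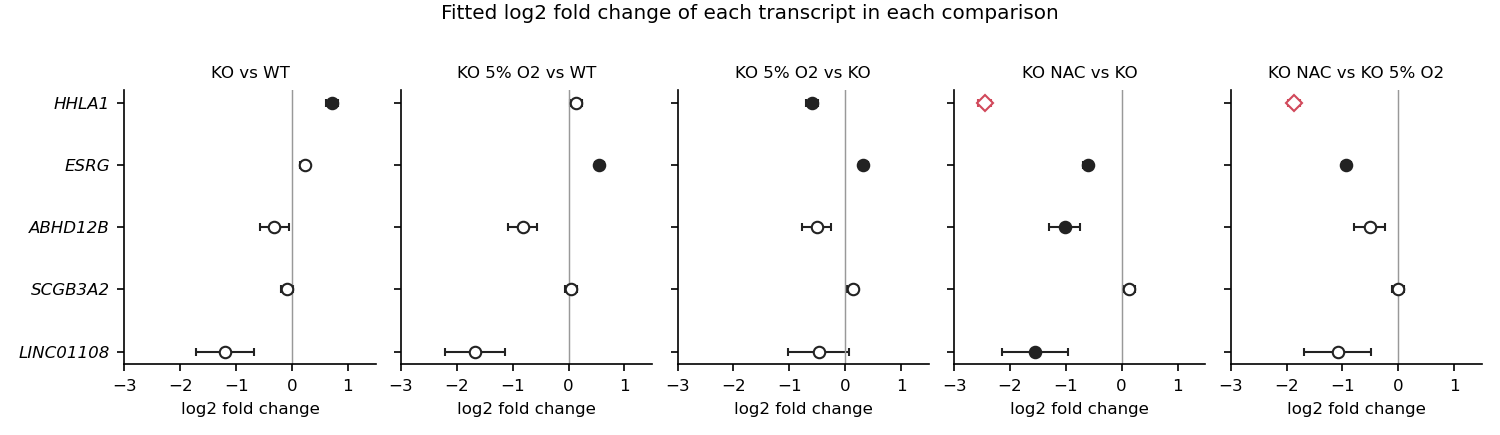
Fitted log2 fold change (horizontal axes) of the 5 transcripts in 5 comparisons of groups, with bars of 1 SE. Filled points passed an adjusted p under 0.05, open circles did not, and red diamonds are HHLA1 in the comparisons with NAC, which have no test; ESRG is at 0.32 at 5% O2 and at -0.60 with NAC against the same untreated KO cells, and SCGB3A2 stays near 0 throughout.

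With NAC, fold changes over all tested genes went with base composition: Spearman's correlation across genes between the log2 fold change and transcript GC content was -0.486, and it was -0.326 at 5% O2 against KO. Genes are not independent replicates, and the corrected fit takes out length and GC content together. In it, ESRG was at -0.66 with NAC (adjusted p = 0.000259), ABHD12B at -1.38 (adjusted p = 0.00365), and LINC01108 at -1.57 (adjusted p = 0.0666). The samples are whole cultures, so fewer cells of a type and less RNA per cell cannot be told apart.

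Other transcripts reported to come from HERVH were also listed. Of 9 listed genes in the table, 7 were tested, and with NAC 1 rose and 1 fell, against 23.8% and 20.8% of all tested genes, with a median log2 fold change of -0.13 against 0.02 over all. The gene that fell was OC90, the neighbour of HHLA1 described above. Whether its fall is separate from the one that HHLA1 was chosen for was not tested. LNCPRESS2, a noncoding RNA of pluripotent cells, had 988 and 1146 counts in KO and 1492 and 1672 with NAC, a log2 fold change of 0.79 (SE 0.17, adjusted p = 0.00257) that turned to -0.28 (adjusted p = 0.153) in the GC-corrected fit. LINC-ROR, which is known from reprogramming, had a value of -0.62 with NAC (SE 0.33, adjusted p = 0.146), and LINC00458 had -0.13 (SE 0.23, adjusted p = 0.686). LINC00458 had 262 and 234 counts at 5% O2 and 164 and 94 with NAC, and NAC against 5% O2 gave -0.88 (SE 0.23, adjusted p = 0.0142), a call that ended without the second library at 5% O2 (adjusted p = 0.119).

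A second list was set by sequence. The genome held 1505 stretches that match the ESRG provirus, 757 of them at least 3000 bases long. An annotated start lay inside such a match on the strand of the gene in 66 of 62663 annotated genes, and in an LTR in 38 of these. The table held 25 of the 66, and without HHLA1, ESRG and ABHD12B there were 22, of which 12 were tested. With NAC, 3 rose and 1 fell, with a median of -0.19, against 23.8% of all tested genes called higher, 20.8% called lower and a median of 0.02. The share that rose was thus near that of all genes. In the GC-corrected fit 1 rose and 4 fell, and the median was -0.33. Of the 15283 genes in that fit, 2612 rose and 1861 fell.

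LINC00678, both of whose annotated starts lie in an LTR, had 4639 and 5295 counts in KO and 8103 and 5872 with NAC. It rose with NAC by 0.68 on the log2 scale (SE 0.11, adjusted p = 0.000329), and by 0.33 in the GC-corrected fit (adjusted p = 0.011). RPL39L, a testis-type ribosomal protein gene with 1 of 3 starts in an LTR, was at 0.46 (SE 0.10, adjusted p = 0.00352), and at -0.15 in the GC-corrected fit (adjusted p = 0.27), and its call ended without the second KO library (adjusted p = 0.0503). MGC32805 fell by 1.84 (SE 0.60, adjusted p = 0.0257) from 29 and 38 counts to 8 and 8, a call that ended without the first NAC library (adjusted p = 0.0936) and without either untreated KO library (adjusted p up to 0.116). TFPI, an inhibitor of blood coagulation with 1 of 11 starts in an LTR, rose in KO against WT from 64 and 57 counts to 161 and 222 (log2 fold change 1.53, SE 0.25, adjusted p = 0.00963). It rose again at 5% O2 against KO, to 395 and 350 counts (1.08, SE 0.23, adjusted p = 0.021). The level of HHLA1 was lower there, against the untreated KO libraries of its choice. The first call of TFPI ended without either WT library or the second KO library and the other without any 1 of the 4 libraries compared (adjusted p up to 0.159 and 0.205). Its rise at 5% O2 against WT, 2.60 on the log2 scale (SE 0.25, adjusted p = 0.000162), held without each library in turn.

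**Figure D4:**
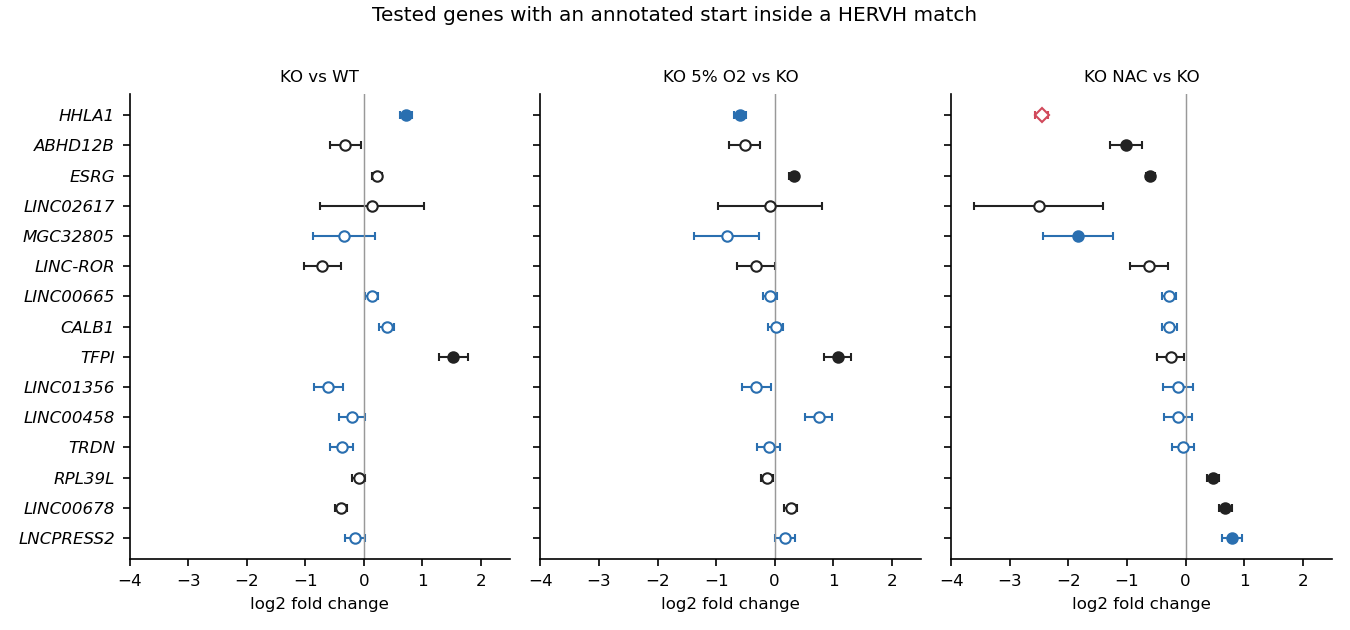
Fitted log2 fold change (horizontal axes, bars of 1 SE) of 15 tested genes with an annotated start inside a match to the ESRG provirus, in 3 comparisons; HHLA1, ABHD12B and ESRG stand at the top. Black marks genes with a start in an LTR, blue those with a start elsewhere in the match, and filled points passed an adjusted p under 0.05. The red diamond is HHLA1 with NAC, which has no test. With NAC the genes run from LINC02617 at -2.51 (SE 1.10, not past the threshold) to LNCPRESS2 at 0.79. LINC02617 had 20 and 6 counts in KO and 4 and 0 with NAC. It passed only without the first NAC library, which leaves the NAC library at 0 counts.

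A further list held factors known at LTR7, their partners and general markers of pluripotent cells such as TDGF1 and LIN28A. All 16 of its genes were tested, and the counts are thus not limited to proteins at LTR7. With NAC 3 rose and 9 fell against untreated KO, with a median of -0.33, where 23.8% of all tested genes rose and 20.8% fell, with a median of 0.02. In the GC-corrected fit 2 rose and 9 fell, with a median of -0.28, where 2612 of 15283 genes rose and 1861 fell. Among those that fell without this correction were NANOG (-0.31, SE 0.09, adjusted p = 0.0142) and KLF4 (-1.06, SE 0.29, adjusted p = 0.0101). So did TFCP2L1, a factor of the naive state (-1.22, SE 0.16, adjusted p = 9.46e-05), and the histone acetyltransferases EP300 (-1.23) and CREBBP (-1.59, SE 0.12, adjusted p = 1.28e-05). DPPA4, ZFP42 and TDGF1 rose, with TDGF1 at 0.26 (adjusted p = 0.014) and at -0.26 in the GC-corrected fit (adjusted p = 0.0133). POU5F1, at 143 and 148 CPM in KO and 171 and 110 with NAC, was at -0.05 (SE 0.18, adjusted p = 0.86), and at -0.40 without the first NAC library (adjusted p = 0.0425). SOX2 was at -0.25 (SE 0.10, adjusted p = 0.0573). KLF4 had 194 and 289 counts in KO and 146 and 61 with NAC, and its call ended without the second KO library (adjusted p = 0.0996), while without the first NAC library it was at -1.59 (adjusted p = 0.000448). The call of NANOG ended without either KO library or the second NAC library (adjusted p up to 0.0857) and that of TDGF1 without either KO library (up to 0.0998). CREBBP was also the single gene of the list that passed in KO against WT, at 0.63 (SE 0.12, adjusted p = 0.0197), where 1.96% of all tested genes were called. At 5% O2 against KO, ZFP42 was called higher and EP300 and CREBBP lower, beside 3.68% and 4.13% of all tested genes. In the GC-corrected fit 0 genes of the list were called there. CREBBP fell at 5% O2 against KO by 0.71 (SE 0.12, adjusted p = 0.00918). Its GC-corrected values were 0.44 (adjusted p = 0.0633) and -0.33 (adjusted p = 0.114). Without any 1 of the 4 libraries the call in KO against WT ended (adjusted p up to 0.248), and the one at 5% O2 ended without either KO library or the first library at 5% O2 (up to 0.168).

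Of 21 listed genes of retroelement silencing, 20 were tested. With NAC 3 rose and 10 fell, with a median of -0.42, beside the same 23.8% and 20.8% of all tested genes. In the GC-corrected fit 2 rose and 8 fell, with a median of -0.25. Of the 15283 genes in that fit, 2612 rose and 1861 fell. TRIM28, the scaffold that KRAB zinc finger proteins recruit, fell by 0.66 (SE 0.09, adjusted p = 0.000134), and was at -0.13 (adjusted p = 0.15) in the GC-corrected fit. SETDB1, its histone methyltransferase partner, was at -0.10 (SE 0.09, adjusted p = 0.392). The histone methyltransferase gene EHMT1 fell by 1.11, the maintenance DNA methyltransferase gene DNMT1 by 1.07 (SE 0.10, adjusted p = 1.96e-05) and its cofactor UHRF1 by 1.03. The heterochromatin protein gene CBX3 rose by 1.01 (SE 0.09, adjusted p = 1.6e-05). At 5% O2 against KO, CBX3 rose by 0.47 (SE 0.09, adjusted p = 0.0137) while DNMT1, UHRF1 and EHMT1 fell by 0.38 to 0.47, and none of these 4 passed in the GC-corrected fit (adjusted p from 0.0779 to 0.586). None passed without either KO library or without the first library at 5% O2, and DNMT1 also not without either WT library, with the highest adjusted p of each gene between 0.213 and 0.372. ZNF534, a zinc finger gene that acts on HERVH, was too low to be tested.

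Over the 8 libraries, HHLA1 had a Pearson correlation of log2 CPM of 0.784 with ESRG, 0.747 with ABHD12B, 0.602 with LINC01108 and -0.448 with SCGB3A2. These values describe 8 libraries in 4 groups and have no test. The libraries include the NAC and untreated KO libraries by which HHLA1 was chosen. A gene that also falls with NAC therefore tends to correlate with HHLA1. The share of all genes with correlations of this size was not computed. Among 12369 genes with an average of at least 1 log2 CPM, the 5 genes with the pattern most like that of HHLA1 were DPP9, SUPT5H, TLE3, SFMBT2 and KSR1, with correlations from 0.993 to 0.996. The fold between the highest and the lowest group mean was smaller for KSR1 than for HHLA1. KSR1 was at 37.9 CPM in WT, 48.0 in KO, 38.2 at 5% O2 and 20.6 with NAC (means, n = 2), against 32.0, 52.6, 35.0 and 9.58 for HHLA1.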

How the data were processed

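Per the labels and the methods of the study, the authors trimmed reads (FastQC 0.11.9 for quality), mapped them with HISAT2 on hg38 and assigned them to genes in featureCounts, whose default drops multi-mapping reads and disregards strand. The deposited values are raw counts. The annotation used for counting is not given in the sources used here. Even numbers made up 68.5 to 72% of counts from 1 to 10 in each library, so a fit of halved counts was added after the data were seen.

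Counts were filtered with filterByExpr (minimum 10), scaled by TMM and fitted in edgeR 4.0.16 (R 4.3.3) by quasi-likelihood, with 1 term per group over 8 libraries and 4 residual degrees of freedom. The Benjamini-Hochberg adjustment covers 15916 genes, and a gene was called at an adjusted p under 0.05. The computation was tested on simulated data. Alternatives were DESeq2 1.42.0, RLE and upper quartile scaling, other filters, replicate blocks, only the libraries compared, the study's criteria (absolute log2 fold change over 1 and unadjusted p under 0.05), a correction for length and GC content (mgcv 1.9.3, known for 96% of tested genes), and fits without each library.

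Proviral matches were found with blastn 2.17.0 (at least 300 bases and 85% identity, joined over gaps of up to 1000 bases) and set against GENCODE 44. Identities of the LTRs were computed on hg38, and their sequences are not reported here. Of 28278 names, 2515 did not match the gene tables. The members and gene lists were chosen with earlier results of these data known. Named genes were the members, their neighbours, UBQLN1, POU5F1, NANOG, SOX2, KLF4, TRIM28, SETDB1 and ZNF534, up to 4 called genes per list, and the 5 genes most like HHLA1. Genes named beyond that rule were chosen after their values were seen.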

Additional observations from a re-analysis of the deposited data

How the results depend on the processing

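Of 409 recomputed fold changes of the members, those of HHLA1 with NAC left out because they have no test, 373 kept their side of the threshold, 28 lost a call, 8 gained one and 0 changed the direction of a call. DESeq2 called 860 genes in KO against WT, 2144 at 5% O2 against KO and 1012 at 5% O2 against WT. No filter on low counts gave 1252, 2220 and 1350 genes for those comparisons, with 2 members at 5% O2 against WT. Fits of only the 4 libraries gave 1124, 3009, 1288 with 3 members, and 3050 for NAC against 5% O2. The study's criteria gave 1435 genes for NAC against KO, 321 at 5% O2 against KO with 0 members, and 703 for NAC against 5% O2 with 0 members. Removing the dependence on length and GC content gave 191 genes for KO against WT, 4473 for NAC against KO, 397 at 5% O2 against KO with 1 member, and 2704 for NAC against 5% O2, and called genes were then higher in 49.2% rather than 68.3% for KO against WT, 82.4% rather than 47.1% at 5% O2 against KO, and 64.9% rather than 54.6% at 5% O2 against WT.

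Leaving out 1 library gave 0 to 1 members and 64 to 1311 genes for KO against WT, 1 to 3 members for NAC against KO, 0 to 2 members and 36 to 2763 genes at 5% O2 against KO, 0 to 3 members and 99 to 1586 genes at 5% O2 against WT, and 1 to 2 members and 1354 to 5468 genes for NAC against 5% O2. Counts of members in this section include HHLA1, except in the comparisons with NAC, where it has no test. The causes of these changes were not tested.

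Whether libraries with the same replicate number share a clone or a batch is not given, and the main fit used no pairing. Their deviations from the group means correlated by -0.02 to 0.08 between groups, which does not settle how the libraries were made. A replicate block over all groups called 1 member in KO against WT, as without it. A replicate block within genotype called 0 members (HHLA1 at 0.76, adjusted p = 0.0883) and 72 genes in KO against WT, where called genes were higher in 41.7%, and 0 members (ESRG at 0.48, adjusted p = 0.0735) and 142 genes at 5% O2 against WT.

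With 2 libraries per group, precision is limited by their number, and members with few counts, LINC01108 and ABHD12B, by depth as well.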
